A study of Homo sapiens with 10 samples.

Results

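The ISG15 conjugation machinery comprises 6 of the 23245 genes listed in each deposited expression table: ISG15, UBA7, UBE2L6, HERC5, HERC6 and USP18. They were chosen by gene symbol, for their known biochemical roles, and their levels were read in every library of the tables. ISG15 is a small ubiquitin-like protein that cells attach to other proteins, mostly during the response to interferon. UBA7 is the activating enzyme (E1) that charges ISG15, and UBE2L6 is the conjugating enzyme (E2) that receives it. HERC5 is the principal ISG15 ligase (E3) of human cells, HERC6 is its close relative, and USP18 is the protease that removes ISG15 from its targets and also dampens signalling from the type I interferon receptor. Interferon binds its receptor, the kinases JAK1 and TYK2 phosphorylate STAT proteins, and these join IRF9 to bind interferon-stimulated response elements (ISREs) in the promoters of target genes, of which all 6 are classical examples.

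RNA-seq was carried out on 3 established cancer cell lines: the osteosarcoma line U-2 OS, the neuroblastoma line SK-N-SH and the erythroleukemia line K562. Each was transfected with 2 µg of a plasmid encoding PcTF, a synthetic activator that joins the chromodomain of CBX8, which binds trimethylated lysine of histone H3, to a red fluorescent protein and the VP64 activation domain. Mock-transfected controls received the Lipofectamine vehicle without plasmid, so an effect of PcTF and an effect of plasmid DNA cannot be told apart in these pairs. K562 cells were harvested by 48 h after transfection and both other lines by 96 h. Only some of the transfected cells carried the fluorescent tag, as the study describes. A further table set PcTF against the stable U-2 OS line U2OS-dTF, which carries delta-TF, a truncated protein without the histone-binding domain. The stable lines U2OS-PcTF (2 libraries) and U2OS-dTF (1 library) both received 1 µg/ml doxycycline for 96 h to release an integrated transgene from the Tet repressor, and each is 1 engineered line. The sample descriptions of 3 libraries name that table, namely the transfected U-2 OS library and both U2OS-PcTF libraries. Its PcTF column was therefore read here as their mean. Of the 10 libraries 9 entered these columns, and U-2 OS cells transfected with the delta-TF plasmid were not analysed here.

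The values are FPKM, fragments mapped per unit of transcript length and of library depth. Each of the 7 single-library columns rests on an estimated 4.28e+06 to 7.39e+06 reads, and 13245 to 16084 genes were above 0. With 1 library per condition no difference has a replicate check, no test was possible, and intervals given below are 95% intervals on estimated reads that cover counting error alone. CBX8, whose reads include those of the PcTF transgene, went from 1.59 to 14.3 FPKM in K562, from 0.287 to 8.85 FPKM in SK-N-SH and from 0.610 to 6.43 FPKM in U-2 OS. All 7 neuroblastoma markers were at 1 FPKM or more in SK-N-SH, and all 7 erythroid markers in K562. Of the 6 mesenchymal markers, COL1A2 and TWIST1 were listed at 0 in both transfection libraries of U-2 OS. These markers were not particular to U-2 OS. Mock-transfected SK-N-SH had COL1A1 at 441 FPKM, COL3A1 at 971 and TWIST1 at 83.9, against 28.7, 451 and 0 in mock-transfected U-2 OS. RUNX2 (3.90 against 7.30 FPKM) and SPARC (207 against 271 FPKM) were lower in SK-N-SH. The erythroid marker EPOR was at 4.64 FPKM in mock-transfected SK-N-SH and at 3.34 FPKM in mock-transfected K562. The leukocyte markers CD14, CD3E, MS4A1 and LILRA4 stayed under 1 FPKM in every column, and PTPRC reached 1 FPKM only in K562. Because these are bulk RNA measurements, a change in the number of cells with a transcript and a change in RNA per cell cannot be told apart.

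The 250 bases before the start sites of ISG15, HERC5 and HERC6 are shown because these genes had the largest ratios between PcTF-transfected and mock-transfected cells of the osteosarcoma or neuroblastoma line. The sequences are from RefSeq (GRCh38.p14), all on the plus strand and written 5′ to 3′, and capitals mark matches to the ISRE core, searched as GAAA, any 2 bases and GAAA, and for the opposite strand as TTTC, any 2 bases and TTTC. They cover chr1:1013247-1013496 for ISG15, chr4:88456869-88457118 for HERC5 and chr4:88378602-88378851 for HERC6.
ISG15: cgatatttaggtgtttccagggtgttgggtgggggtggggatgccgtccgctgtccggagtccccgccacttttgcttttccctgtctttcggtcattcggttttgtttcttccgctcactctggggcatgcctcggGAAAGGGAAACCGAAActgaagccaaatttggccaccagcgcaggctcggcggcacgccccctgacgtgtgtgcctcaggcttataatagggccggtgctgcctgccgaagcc
HERC5: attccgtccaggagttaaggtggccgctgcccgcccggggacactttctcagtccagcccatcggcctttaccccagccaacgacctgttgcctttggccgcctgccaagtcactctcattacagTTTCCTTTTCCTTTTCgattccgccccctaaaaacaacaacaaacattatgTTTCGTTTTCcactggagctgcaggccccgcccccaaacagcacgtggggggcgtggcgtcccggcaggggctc
HERC6: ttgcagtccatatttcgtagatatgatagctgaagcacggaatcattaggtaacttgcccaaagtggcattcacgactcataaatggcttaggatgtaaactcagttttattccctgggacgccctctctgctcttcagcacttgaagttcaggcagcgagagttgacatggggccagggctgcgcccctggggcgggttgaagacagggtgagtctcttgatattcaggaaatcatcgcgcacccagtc

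The search covered windows from 250 bases before to 50 bases after the start site. ISG15 held 2 overlapping matches, at -113 to -104 and -107 to -98. HERC5 held 3 matches on the opposite strand, at -125 to -116, -119 to -110 and -74 to -65, the first of which overlaps the next. No match was found in the window of HERC6 or in either of the 2 windows of UBE2L6. The shorter STAT-binding motif (TTC, any 3 bases, GAA, which reads the same on both strands) had no match in any of these 5 windows. Of 35116 promoter windows in the same table, 3.57% held the ISRE core and 7.66% the STAT motif. No promoter of UBA7 or USP18 was in the table. These matches describe letters in a fixed window and do not show binding.

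**Figure D1:**
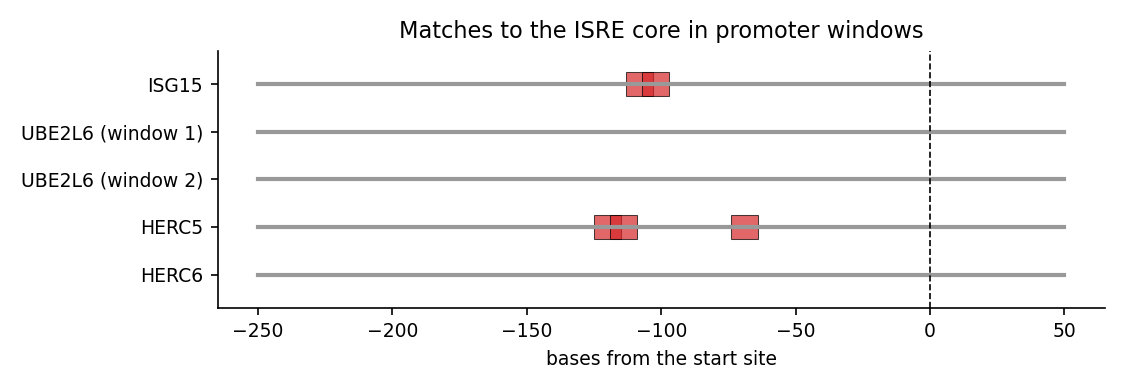
Matches to the ISRE core on either strand (red boxes) in promoter windows of 4 members, plotted by distance in bases from the start site (dashed line). ISG15 holds 2 matches and HERC5 holds 3, all within 125 bases upstream, and the windows of UBE2L6 and HERC6 hold none.

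In U-2 OS cells, all 6 genes were at least 2-fold higher after transfection with the PcTF plasmid than after mock transfection. Over the whole transcriptome, 2-fold higher levels were found for 13.4% of all genes and 2-fold lower levels for 9.17%. The median log2 difference of the 6, with 0.1 FPKM added to both values, was 2.12, against 0.08 for all genes with 1 FPKM or more in either library. The modifier and its main ligase had the largest ratios, and the E1 enzyme had the smallest. In the same pair 2 of the 4 mesenchymal markers with 1 FPKM or more were 2-fold lower with PcTF, COL3A1 at 451 and 28.6 FPKM and COL1A1 at 28.7 and 11.3 FPKM, and the part of this in the members' values was not tested.

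ISG15 (hg19 chr1:948847-949919, 2 exons) stood at 4.87 FPKM in mock-transfected U-2 OS and at 95.4 FPKM with PcTF. The ratio was 19.6-fold, from an estimated 11 and 190 reads (interval 10.8 to 40.1). The library with PcTF was thus far above the mock, and its log2 difference ranked 100th of 12406 genes with 1 FPKM or more in either library. UBE2L6 (chr11:57319128-57335803, minus strand, 4 exons), the E2 that hands ISG15 to the ligase, was at 22.3 FPKM in mock and at 89.0 FPKM with PcTF. Its ratio was 4.00-fold (interval 3.23 to 4.99), with read numbers that are approximate because the gene has several isoforms. UBE2L6 was the most abundant of the 6 transcripts in the mock, and with PcTF ISG15 moved ahead of it, so that the ratio of ISG15 to UBE2L6 FPKM went from 0.219 to 1.07.

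HERC5 (chr4:89378268-89427314, 23 exons) was at 1.30 FPKM in mock and at 21.7 FPKM with PcTF, a 16.7-fold ratio from 21 and 308 reads (interval 10.7 to 27.4). HERC6 (chr4:89299891-89364249, 22 exons), which ends 14.0 kb before HERC5 on the same strand, was at 7.04 FPKM in mock and at 33.7 FPKM with PcTF. Its ratio was 4.79-fold (interval 3.92 to 5.87). Both neighbours were higher with PcTF, and HERC5 more so. HERC5 made up 14.6% of the 144 reads of the pair in the mock (exact interval 9.26 to 21.4%) and 37.4% of 824 reads with PcTF (34.1 to 40.8%).

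UBA7 (chr3:49842638-49851391, minus strand, 24 exons), the E1 that starts the cascade, was at 2.04 FPKM in mock and at 5.55 FPKM with PcTF. The 2.72-fold ratio rests on 31 and 74 reads (interval 1.77 to 4.28). USP18 (chr22:18632758-18660162, 11 exons), the deconjugating protease, went from 0.335 to 1.53 FPKM with PcTF. These are 3 and 12 reads, so the ratio of 4.56 has an interval of 1.23 to 25.2. USP18 was the least abundant of the 6 in both libraries. Its close copy USP41 is not listed in the tables, and how reads shared by these near-identical genes were assigned is not given in the sources used here, which leaves the level of USP18 uncertain.

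**Figure D2:**
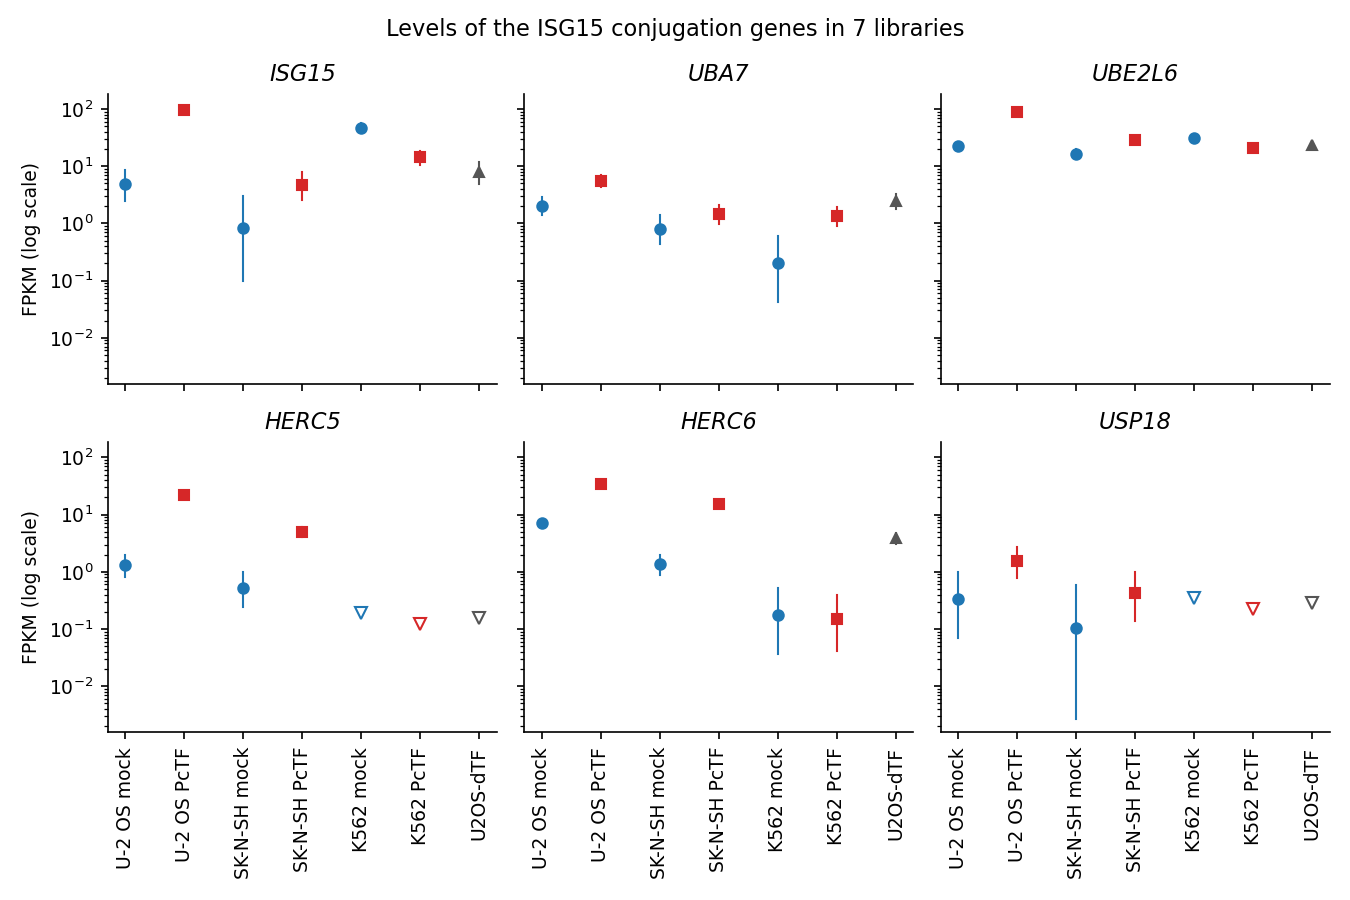
FPKM (log scale) of each member in 7 libraries, with mock-transfected cells as blue circles, PcTF-transfected cells as red squares and the stable U2OS-dTF line as grey triangles. Vertical lines are 95% Poisson intervals on estimated reads, and open triangles mark the level of 3 reads where a gene is listed at 0. The FPKM of all 6 genes is higher with PcTF than with mock in both solid-tumor lines. For UBA7 and USP18 in SK-N-SH the counting interval of the ratio includes no difference. In K562 ISG15 and UBE2L6 are lower and HERC5 and USP18 are at 0.

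In SK-N-SH cells every member had a higher FPKM with PcTF than with mock, and 4 of 6 were at least 2-fold higher, against 10.3% of all genes in that table. None was 2-fold lower, against 6.23% of all genes. The median log2 difference of the 6 was 1.87, against 0.10 for genes with 1 FPKM or more. Here the ligases HERC6 and HERC5 had the largest ratios, and the E1 and E2 stayed under 2-fold.

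HERC6 was at 1.34 FPKM in mock-transfected SK-N-SH and at 15.4 FPKM with PcTF. The 11.4-fold ratio came from 25 and 351 reads (interval 7.61 to 17.9). HERC5 was at 0.523 FPKM in mock and at 5.01 FPKM with PcTF, a 9.57-fold ratio from 9 and 106 reads (interval 4.86 to 21.5). The pair thus kept its proportion within counting error, with HERC5 at 26.5% of 34 reads in mock (12.9 to 44.4%) and at 23.2% of 457 reads with PcTF (19.4 to 27.3%). This differs from U-2 OS, where the intervals of the 2 shares did not overlap, although the difference between the lines has no replicates behind it and was not tested.

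ISG15 was at 0.833 FPKM in mock-transfected SK-N-SH and at 4.74 FPKM with PcTF. The ratio of 5.69 rests on 2 and 14 reads and has an interval of 1.31 to 51.6. ISG15 was therefore scarce in this line, and its level with PcTF was close to that of mock-transfected U-2 OS cells (intervals 2.58 to 7.91 FPKM and 2.42 to 8.68 FPKM), bearing in mind that the tables were scaled separately. UBE2L6 was at 16.6 FPKM in mock and at 28.5 FPKM with PcTF, 1.72-fold (interval 1.33 to 2.25). UBA7 was at 0.804 FPKM in mock and at 1.46 FPKM with PcTF, 1.81-fold with an interval of 0.914 to 3.8. For UBA7 a difference was not detectable at this depth. USP18 was at 0.105 FPKM without and 0.427 FPKM with PcTF, or 1 and 5 reads, and its ratio of 4.06 has an interval of 0.455 to 192. Although counted as 2-fold higher, USP18 was too scarce in SK-N-SH for a direction to be read.

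K562 cells gave a different picture. Of the 6 genes, 1 was 2-fold higher with PcTF (24.9% of all genes were), 1 was 2-fold lower (9.08% of all genes were) and 2 were listed at 0 in both libraries. The median log2 difference of the 6 was -0.08, while that of genes with 1 FPKM or more was 0.37. Over the 3 members at the same limit the median was -0.54. The K562 libraries also differed in other genes: GAPDH was at 428 FPKM in mock and at 2894 FPKM with PcTF, the globin gene HBZ was at 8.87 and 73.5 FPKM, and RUNX2 was at 9.13 and 0.128 FPKM. The part of such differences in the values below was not tested.

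ISG15 was the most abundant member in mock-transfected K562, at 46.7 FPKM, and was at 14.3 FPKM with PcTF. This was a 3.26-fold lower level from 101 and 49 reads, and the log2 ratio of PcTF over mock had an interval of -2.23 to -1.20. UBE2L6 was at 30.7 FPKM in mock and at 21.0 FPKM with PcTF, 1.46-fold lower (log2 interval -0.88 to -0.21). The modifier and its E2 were thus both lower with PcTF in K562, and the ratio of ISG15 to UBE2L6 went from 1.52 to 0.679.

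UBA7 went the other way, from 0.206 FPKM in mock to 1.34 FPKM with PcTF, a ratio of 6.53 from 3 and 31 reads (interval 2.04 to 33.4). Both ligases were almost silent in this line. HERC6 was at 0.179 FPKM in mock and at 0.151 FPKM with PcTF, or 3 and 4 reads (interval of the ratio 0.143 to 5.75). HERC5 was listed at 0 in both K562 libraries, where 3 reads would have given 0.194 FPKM in mock and 0.123 FPKM with PcTF. USP18 was also at 0 in both, with corresponding 3-read levels of 0.350 and 0.221 FPKM. K562 cells therefore held abundant transcripts of the modifier and the E2 with little or none detected of both ligases and the protease.

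**Figure D3:**
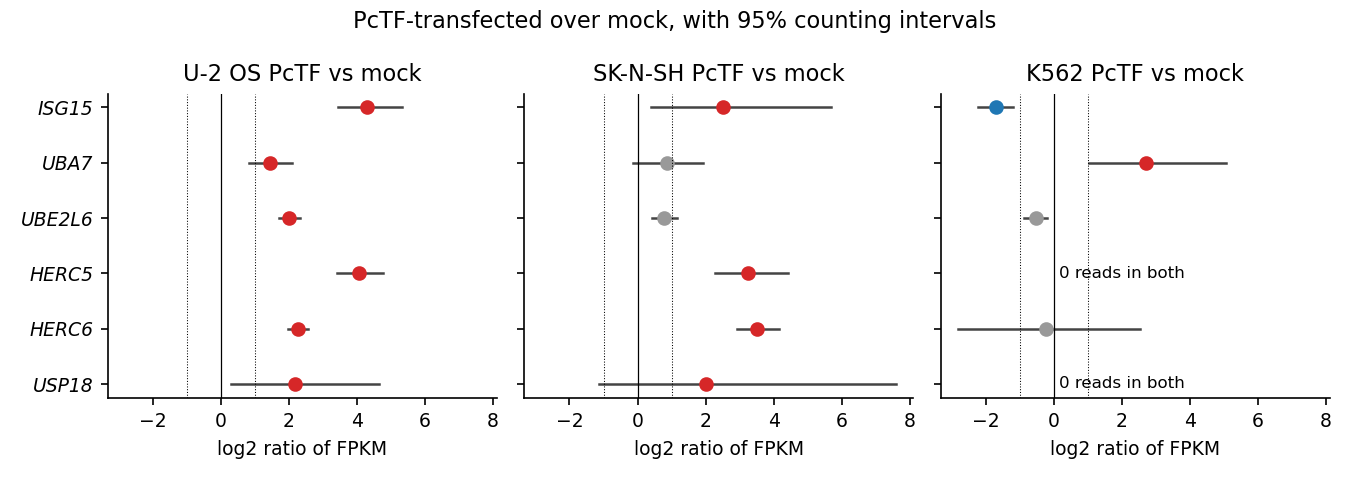
log2 ratio of FPKM in PcTF-transfected over mock-transfected cells for each member, 1 panel per cell line, with 95% counting intervals as horizontal lines. Dotted lines mark 2-fold, red points are 2-fold higher, blue points 2-fold lower and grey points under 2-fold. The 6 points of U-2 OS lie between 1.44 and 4.29, those of SK-N-SH between 0.79 and 3.51, and those of K562 between -1.71 and 2.71.

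The summed FPKM of the 6 genes went from 37.9 in mock to 247 with PcTF in U-2 OS, whereas it went from 20.2 to 55.5 in SK-N-SH and went down from 77.8 to 36.8 in K562. In every library this sum was made up mostly of ISG15 and UBE2L6. Across the 3 mock-transfected lines, ISG15 differed most widely among the 4 members above 0 in all 3, with 0.833 FPKM in the neuroblastoma cells, 4.87 FPKM in the osteosarcoma cells and 46.7 FPKM in K562. The intervals of SK-N-SH (0.10 to 2.99 FPKM) and U-2 OS (2.42 to 8.68 FPKM) overlapped, and that of K562 (37.8 to 56.4 FPKM) lay above both. UBE2L6 varied far less, between 16.6 and 30.7 FPKM in these 3 libraries. HERC6 was highest in U-2 OS (7.04 FPKM) and lowest in K562 (0.179 FPKM).

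In the table of PcTF against U2OS-dTF, 4 of 6 members were at least 2-fold higher in the deposited mean of the 3 PcTF libraries, and 0 were 2-fold lower. Among all genes there, 40.5% were 2-fold higher and 9.84% were 2-fold lower, so a 2-fold difference was common in it. ISG15 was at 36.3 FPKM in the mean and at 7.84 FPKM in U2OS-dTF, 4.63-fold higher. HERC6 was at 15.5 and 3.90 FPKM, 3.97-fold higher. HERC5 was at 7.24 FPKM in the mean and listed at 0 in U2OS-dTF, and USP18 was at 0.677 FPKM against 0. Set against the level of 3 reads in that library, the ratio was 46.2 for HERC5 and 2.40 for USP18. These ratios are not lower bounds, because the counting intervals in U2OS-dTF reach above that level, to 0.192 FPKM for HERC5 and 0.348 FPKM for USP18. UBE2L6 (41.9 and 23.7 FPKM) and UBA7 (3.10 and 2.44 FPKM) were under 2-fold.

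On this reading the mean includes the transfected U-2 OS library, which has its own column elsewhere. A mean over just the 2 stable U2OS-PcTF libraries could then be derived. For 325 of the 16044 genes above 0 in the transfected library, the deposited mean was that library's value divided by 3 to within 0.01%, and 9 genes lay more than 1% below this value. HERC5 was among the 325, so both stable U2OS-PcTF libraries held it at 0 within that tolerance. Among the other members the transfected library supplied 87.6% of the summed FPKM for ISG15, 75.3% for USP18, 72.5% for HERC6, 70.8% for UBE2L6 and 59.7% for UBA7. Over 12521 genes with a mean of 1 FPKM or more, the median share of that library was 28.6%.

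In the mean derived for stable U2OS-PcTF cells, ISG15 was at 6.75 FPKM, against 7.84 FPKM in U2OS-dTF. UBE2L6 was at 18.3 FPKM against 23.7, and UBA7 at 1.88 FPKM against 2.44. The log2 ratios were -0.21, -0.37 and -0.38. ISG15 and UBA7 lay within the counting intervals of U2OS-dTF (4.83 to 11.9 FPKM and 1.78 to 3.28 FPKM), so no difference can be read for them, and UBE2L6 lay just below its interval (19.8 to 27.8 FPKM). HERC6 was at 6.40 FPKM against 3.90, 1.64-fold higher. HERC5 was at 0 in both. USP18 was at 0.251 FPKM against 0, which is below the 0.283 FPKM that 3 reads would give in U2OS-dTF, so no fold is given. By the 2-fold rule 1 of 6 members was counted as higher, USP18, and 0 as lower, while 39.9% of all genes were 2-fold higher and 9.39% were 2-fold lower. The median log2 difference of the members was -0.11, against 0.58 for genes with 1 FPKM or more. Over the 4 members at the same limit the median was -0.29, with 0 counted as higher and 0 as lower. Both comparisons share the U2OS-dTF library, and the deposited mean also contains the stable libraries, so they are not independent of each other.

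**Figure D4:**
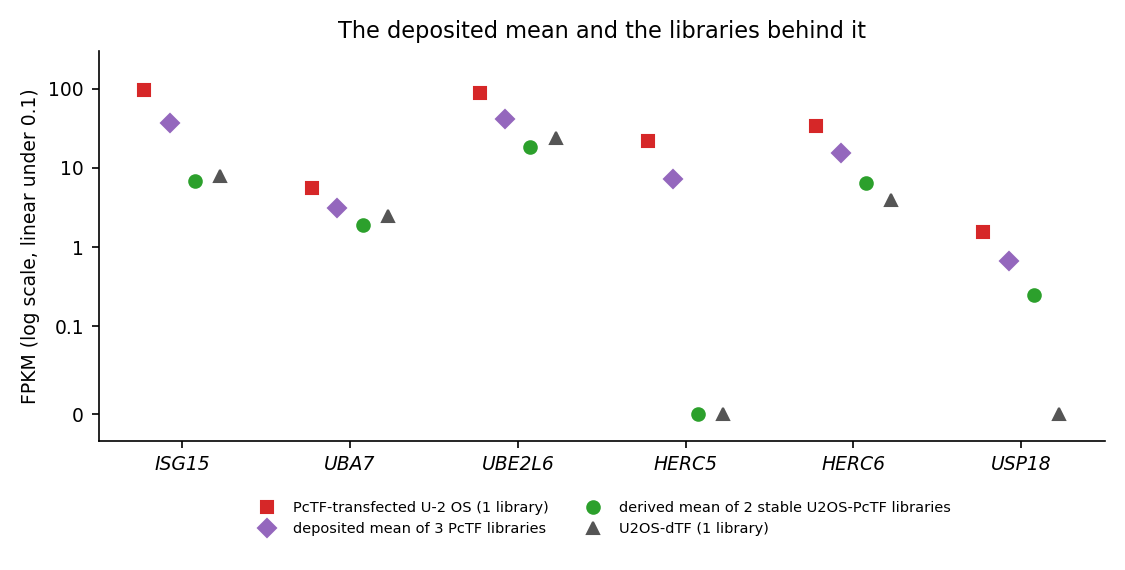
FPKM (log scale, linear under 0.1) of each member in the PcTF-transfected U-2 OS library (red squares), the deposited mean of 3 PcTF libraries (purple diamonds), the value derived for the 2 stable U2OS-PcTF libraries (green circles) and U2OS-dTF (grey triangles). The deposited mean lies above U2OS-dTF for all 6 genes, whereas the derived mean of the stable libraries lies below it for ISG15, UBA7 and UBE2L6 and at 0 with it for HERC5.

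The U2OS-dTF library also differed from the other U-2 OS columns in genes outside the machinery. COL3A1, which varied widely among all U-2 OS columns, was at 0.196 FPKM there, at 3.17 FPKM in the derived stable mean, at 28.6 FPKM in PcTF-transfected and at 451 FPKM in mock-transfected U-2 OS, and the median log2 ratio of the derived stable mean over U2OS-dTF was 0.39 among 10327 genes with 1 FPKM or more in both. CBX8 was at 4.92 FPKM in the derived stable mean and at 6.43 FPKM in the transfected library, against 1.28 FPKM in U2OS-dTF. These values include native CBX8 and are bulk averages, and only some of the transfected cells carried PcTF, so they do not give the transgene level per cell. The stable and the transfected cells differed in delivery and in culture, and the part of either in the members' levels was not tested.

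The parallel enzyme systems of the ubiquitin family were read for comparison. Counts here are over list members with 1 FPKM or more in either library, and over all genes passing the same limit 12.7%, 6.09% and 29.1% were 2-fold higher in the osteosarcoma, neuroblastoma and erythroleukemia line, respectively. In U-2 OS, 0 of 12 SUMO genes, 0 of 6 NEDD8 genes and 0 of 5 UFM1 genes were 2-fold higher. In SK-N-SH the counts were 0 of 12, 0 of 7 and 0 of 5 for these lists and 0 of 12 for the ubiquitin genes. No gene so counted was 2-fold lower in either line. The median log2 differences of the 4 lists lay between -0.25 and 0.44 in the former and between -0.16 and 0.22 in the latter. Those of the ISG15 genes at the same limit were 2.12 over 6 genes and 2.37 over 5 genes. Without the limit the latter was 1.87 over all 6.

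The nearest counterparts of the members stayed under 2-fold in these lines, HERC3 excepted. UBA1, the E1 of ubiquitin, was at 50.4 and 71.5 FPKM in mock and PcTF-transfected osteosarcoma cells and at 47.1 and 54.1 FPKM in neuroblastoma cells. UBE2L3, the ubiquitin E2 most closely related to UBE2L6, was at 11.0 and 14.0 FPKM and at 8.63 and 9.75 FPKM. The large HERC family proteins HERC1 and HERC2, and the smaller HERC3 and HERC4, share the ligase domain of HERC5 and HERC6. HERC3 was 2-fold lower with PcTF in the osteosarcoma cells (7.38 and 3.23 FPKM), and none of the other 3 was 2-fold apart in either line. HERC3 in SK-N-SH was at 3.40 and 3.97 FPKM. Against U2OS-dTF, however, HERC3 was 10.2-fold and HERC4 2.57-fold higher in the deposited PcTF mean, and 13.0-fold and 2.37-fold higher in the derived stable mean. HERC1 was 2-fold lower in the deposited mean (13.0 FPKM, against 27.7 FPKM in U2OS-dTF) and under 2-fold in the derived one. Over all genes, 40.5% and 39.9% were 2-fold higher in these comparisons and 9.84% and 9.39% were 2-fold lower.

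In K562 several genes of the related systems were 2-fold higher. UBA1 went from 45.9 to 102 FPKM, UBA6, a further ubiquitin E1, from 12.1 to 24.9 FPKM, and the E2 gene CDC34 from 6.02 to 17.4 FPKM. These 3 of 12 ubiquitin genes were 2-fold higher, as were 1 of 12 SUMO genes (the protease gene SENP5, 12.4 to 27.3 FPKM) and 3 of 7 NEDD8 genes. Among the latter, the protease gene SENP8 went from 0.156 to 1.19 FPKM, the E2 gene UBE2M from 2.91 to 6.23 FPKM and DCUN1D1, a ligase cofactor, from 1.96 to 3.93 FPKM. In the UFM1 list the protease genes UFSP1 (0.809 to 2.04 FPKM) and UFSP2 (15.8 to 6.50 FPKM) went opposite ways. UBE2L3 was at 92.6 and 153 FPKM. These counts stand beside a background of 29.1% of genes that were 2-fold higher.

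**Figure D5:**
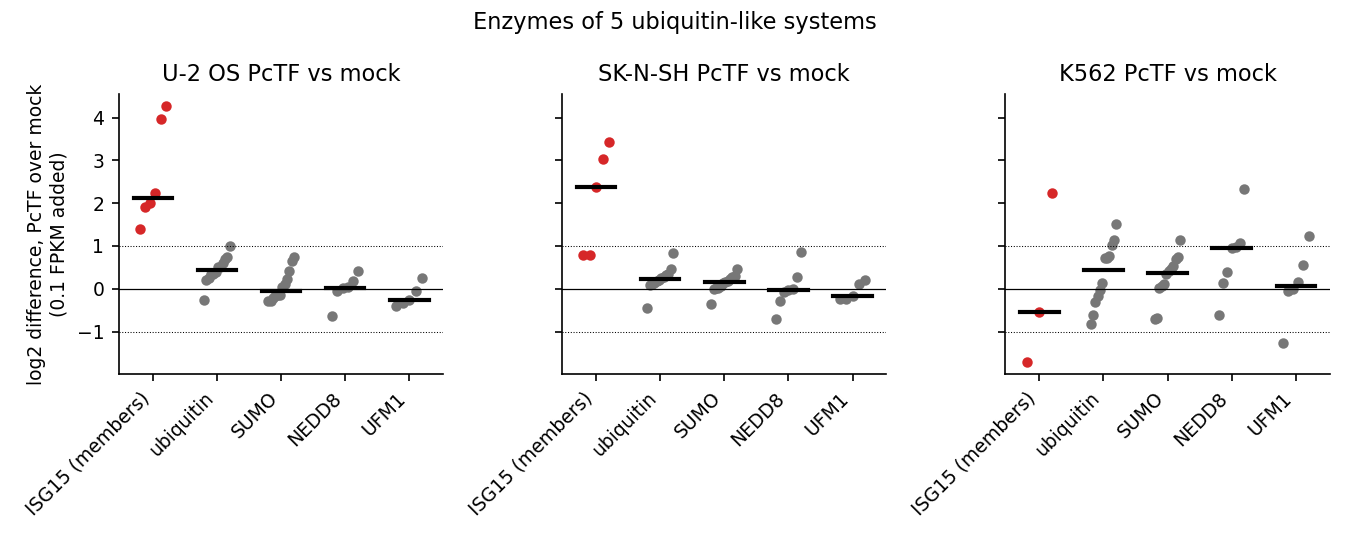
log2 difference (0.1 FPKM added) of PcTF-transfected over mock-transfected cells for genes with 1 FPKM or more in either library, by modifier system, with the ISG15 genes that passed this limit (6, 5 and 3 in the panels from left to right) in red, other systems in grey, medians as black bars and 2-fold as dotted lines. In U-2 OS the ISG15 genes lie between 1.40 and 4.26, and the medians of the other systems lie between -0.25 and 0.44.

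Of 10 further ISG15 ligases, proteases and binding partners in the tables, 1 was 2-fold higher in the osteosarcoma cells among 8 with 1 FPKM or more, and 1 among 9 in the neuroblastoma cells. Over all genes at the same limit, 12.7% and 6.09% were 2-fold higher in these lines, so single calls are not a result about the list. The gene called was TRIM25 both times, a ligase that can attach ISG15 and itself an interferon-responsive gene. TRIM25 was at 13.0 and 33.6 FPKM in mock and PcTF-transfected U-2 OS. Its level in SK-N-SH was 7.36 and 17.7 FPKM and in K562 39.3 and 26.0 FPKM. It had the direction of UBE2L6 in each line. ARIH1, another ligase of ISG15, was at 17.4 and 15.2 FPKM in the osteosarcoma cells, at 24.2 and 27.7 FPKM in the neuroblastoma cells and at 15.7 and 23.7 FPKM in K562. In K562, 3 of 8 of these genes were 2-fold higher, beside 29.1% of all genes, among them USP21 (3.40 to 15.1 FPKM), a protease that can act on ISG15, and SKP2 (48.6 to 124 FPKM), a ligase subunit.

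Interferon signalling genes were read from a list of 23 symbols, of which 20 were in the tables. Of those with 1 FPKM or more, 5 of 10 were 2-fold higher in the osteosarcoma cells, 5 of 10 in the neuroblastoma cells and 0 of 9 in K562, and none was 2-fold lower. Over all genes at the same limit, 12.7%, 6.09% and 29.1% were 2-fold higher in these lines, respectively. STAT2, a transducer of type I interferon signals, was at 8.10 and 16.1 FPKM in mock and PcTF-transfected osteosarcoma cells, at 8.19 and 12.8 FPKM in the neuroblastoma cells and at 7.44 and 12.1 FPKM in K562. IRF9, which brings the STAT pair to the ISRE, was at 3.75 and 8.07 FPKM and at 4.05 and 9.12 FPKM in the 2 solid-tumor lines. In K562 it was at 2.32 and 4.21 FPKM. IRF1, an interferon-inducible transcription factor, was at 1.59 and 6.68 FPKM in the osteosarcoma cells, at 1.09 and 4.34 FPKM in the neuroblastoma cells and at 2.29 and 2.13 FPKM in K562. IRF9 and IRF1 were thus 2-fold higher in the 2 solid-tumor lines, and not in K562. For IRF9 the lines differed little, at 2.15-fold in the osteosarcoma cells, 2.25-fold in the neuroblastoma cells and 1.82-fold in K562. With 1 FPKM added to both values these ratios were 1.91, 2.01 and 1.57, so IRF9 no longer reached 2-fold in the osteosarcoma cells. That of IRF1 in the osteosarcoma cells was 2.97.

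The ligands themselves were scarce. IFNK, an interferon of keratinocytes, was at 1.31 and 1.25 FPKM in mock and PcTF-transfected U-2 OS. IFNE was at 0 and 0.551 FPKM in the same pair, and IFNA1 at 0 and 0.237 FPKM in SK-N-SH (these 3 ligands were picked after their values were seen). IFNB1, which encodes interferon beta, was listed at 0 in mock-transfected U-2 OS and at 0.734 FPKM with PcTF, or 2 reads (interval 0.0886 to 2.64 FPKM). It was at 0 in the libraries of SK-N-SH and K562 and in U2OS-dTF, where 3 reads would have given 0.635 to 1.00 FPKM. The interferon lambda gene IL29 was listed at 0 in every column. IRF7, which drives interferon genes, was at 0 in both U-2 OS libraries, at 0.458 and 1.77 FPKM in SK-N-SH and at 0.381 and 0.722 FPKM in K562. At this depth low levels of interferon transcripts were not detectable.

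Among 20 genes whose proteins are known to carry ISG15, 7 of 19 with 1 FPKM or more were 2-fold higher in the osteosarcoma cells, 7 of 20 in the neuroblastoma cells and 4 of 18 in K562, and 0 were 2-fold lower. Over all genes at the same limit the shares were 12.7%, 6.09% and 29.1%, so the K562 share lay below that of all genes. Many of this list are interferon-stimulated genes themselves. IFIT1, an antiviral protein that binds foreign RNA, was at 35.1 and 212 FPKM in the osteosarcoma cells and at 5.11 and 51.9 FPKM in the neuroblastoma cells. IFIT3, its partner, was at 35.4 and 245 FPKM and at 3.68 and 22.2 FPKM in the same lines. MX1, an antiviral GTPase and a classical interferon-stimulated gene, was at 0.625 and 32.9 FPKM in SK-N-SH, and in U-2 OS at 0.333 and 0.379 FPKM. The level of MX1 thus differed between mock and PcTF in SK-N-SH and hardly in U-2 OS, unlike those of ISG15 and HERC5. In K562 MX1 was at 0.402 and 2.08 FPKM, IFIT3 at 0.0913 and 1.67 FPKM, and IFIT1 at 0.516 and 0.0814 FPKM. In the derived stable mean against U2OS-dTF, 10 of 20 genes of this list were 2-fold higher and 1, MX1, was lower. Of the interferon signalling genes 7 of 9 were higher there and 0 lower. Without the 1 FPKM limit, 39.9% of all genes were higher in that comparison. IFIT3 was at 1.15 FPKM in U2OS-dTF and at 7.36 FPKM in the derived stable mean.

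The members did not follow a single profile over the 7 libraries. The Pearson correlation of log2 FPKM (0.1 added) was 0.99 between HERC5 and USP18, 0.86 between HERC5 and HERC6, 0.81 between ISG15 and UBE2L6, and 0.04 between ISG15 and HERC6. These are descriptions over 7 points that share cell lines and tables, and several of them are at 0. The 5 genes with profiles most like the mean of the 6 members, among 13670 genes, included TDRD7 (0.996), OASL (0.962), IFIH1 (0.962) and CASP1 (0.960). Of the 5, 3 stayed among the leading 5 when the derived stable mean was added, and 1 when 1 FPKM was added in place of 0.1. TDRD7 was at 11.0 and 28.6 FPKM in mock and PcTF-transfected U-2 OS, at 5.68 and 13.1 FPKM in the neuroblastoma cells and at 5.46 and 6.10 FPKM in K562. The most alike gene was MLKL for ISG15 (0.954), UTP18 for UBA7 (0.971), GBP5 for UBE2L6 (0.924), IFI44L for HERC5 (0.972) and C10orf28 for HERC6 (0.993).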

How the data were processed

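Total RNA of 3 cell lines was sequenced as single-end reads. According to the submitters' processing notes, reads were checked with FastQC and aligned to hg19 with TopHat2 2.1.0 and Bowtie2. The authors obtained FPKM with Cuffdiff, separately for each of 4 deposited tables, scaled to library depth and transcript length. The tables also hold the authors' fold changes, test statistics, p-values and q-values, which were not used. Rows that Cuffdiff marked as not quantified (3 to 7 of 23245 per table) were left out of counts over all genes.

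Samples were grouped by their labels, with 1 library per condition. Members were taken by symbol and called where deposited FPKM values were 2-fold apart, without a filter. For medians, lists and likeness 0.1 FPKM was added before the log2. The 6 members, the lists and the comparisons were chosen with earlier results of these data known. Besides the members, named genes comprised a set of counterparts and signalling genes, up to 3 genes per list with the largest log2 difference among those with 1 FPKM or more, and the genes with the highest Pearson correlation. CBX8 and GAPDH are outside this rule. Some items are not reported here.

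Low FPKM of single-exon genes of 600 to 6000 nt are whole multiples of the value of 1 read. A search for this step, assuming fragments of 200 bp with an SD of 80 bp, gave the depth of each library, and 93.4% to 100% of values under 12 reads fell within 0.03 reads of a whole number. Reads of members used transcript lengths from GENCODE (GRCh37). The search was tested on simulated data made with the same fragment lengths, so that test could not check the assumed length. Ratios have exact 95% binomial intervals and levels exact Poisson intervals. Where a library was at 0, the level of 3 reads was given for reference. Promoters came from RefSeq. Python 3.11.15, pandas 2.3.3, numpy 2.4.6 and scipy 1.17.1 were used. Alternatives were other pseudocounts, thresholds, a filter, centring, leaving out the transfected library, and a 300-bp fragment.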

Additional observations from a re-analysis of the deposited data

Results flagged for a closer look

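ISG15 and UBE2L6 differed in direction between the cell lines under the same contrast. The log2 ratio of PcTF-transfected over mock-transfected cells for ISG15 was 4.29 in osteosarcoma cells, 2.51 in neuroblastoma cells and -1.71 in K562. For UBE2L6 the ratio was 2.00, 0.79 and -0.54 in the same order. Genes were flagged where the counting interval lay above 0 in at least 1 line and below 0 in another. Intervals that exclude 0, as all 6 do here, are thus part of this choice and no separate support. Each ratio rests on 1 library per condition, and the difference between the lines was not tested. The K562 cells were collected at up to 48 h and the others at up to 96 h, so line and time cannot be told apart.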

How the results depend on the processing

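The counts of members 2-fold apart were the same, or within 1.5 times, under 22 of 25 alternatives. In K562 the count of 2 became 1 with 1 FPKM added, where UBA7 had a log2 difference of 0.96, and 1 at a 4-fold threshold. In the table of the deposited PcTF mean, the count of 4 became 1 without the transfected U-2 OS library. Of the 5 genes most like the members 3 remained with the derived stable mean and 1 with 1 FPKM added. Log2 differences of members were outside their counting interval, or changed where none could be given, in 22 cases and within it in 46, and no called value changed direction. For the other lists 9 of 48 counts changed by over 1.5 times with 1 FPKM added or with centring (both chosen for lists after seeing the data). With 1 FPKM added, 2 interferon signalling genes were 2-fold apart in osteosarcoma cells and 3 in neuroblastoma cells. With a 300-bp fragment 35.4% to 46.2% of low values were whole, so no depth was found and that alternative gave no values. No paired analysis was possible because each condition compared has 1 library or a pooled mean. Depth limits ratios with 12 reads or fewer in a library: USP18 throughout, ISG15 in mock-transfected U-2 OS and SK-N-SH, HERC5 in mock-transfected SK-N-SH, and HERC6 and mock UBA7 in K562.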
